A study of Zea mays with 50 samples.

Results

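The genes described here were nearly silent in maize leaf protoplasts except where the factor EREB69 was expressed. A row of the deposited table was taken when it held at least 1 RPKM in both EREB69 libraries and averaged below 0.1 RPKM over the other 48 libraries. RPKM are reads scaled to row length in kilobases and to library depth. The rule found 36 of 30213 rows. It used the very values that set EREB69 apart, so levels in EREB69 against other cells are given as a description, with no test.

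Protoplasts are plant cells freed of their walls. They came from leaves of the inbred B73, taken from more than 10 seedlings per isolation, grown in the dark at 25 °C for 10 to 12 days. Each library came from cells given GFP alone or 1 of 23 candidate regulators of phasiRNA loci, and polyadenylated RNA was sequenced. EREB69 was expressed from p35S-GFP-EREB69, a 35S promoter construct named for a GFP fusion, in 1 library of protoplast prep 2 and 1 of prep 4. Controls of the same preps carried p35S-GFP, with 1 library each. The other 46 libraries were GFP alone in preps 1 and 3 and 22 other regulators, each in 2 libraries. A prep is 1 isolation from pooled seedlings, the promoter is active in most cell types, and the labels do not say which share of the cells took up a construct. In bulk RNA, fewer expressing cells and less RNA per cell cannot be told apart.

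EREB genes are named after ethylene-responsive element binding proteins and belong to the plant AP2/ERF family of transcription factors. Family members bind short GC-rich promoter elements and act in hormone, stress, seed and floral programmes. Delta zeins, to which a member of the set belongs, are methionine-rich storage proteins of the seed, made in the endosperm and packed into protein bodies. PhasiRNAs are phased small RNAs cut from long precursor transcripts, abundant in grass anthers.

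The EREB69 libraries stood apart in depth. Recovered read totals were 28153659 in prep 2 and 29950561 in prep 4, against 6830506 to 11875650 in the other 48. Every row of the table reached at least 1 CPM, reads scaled to depth without length, in at least 2 libraries, so a gene silent everywhere is not among the 30213. The leaf marker pdk1 (GRMZM2G306345), which encodes an enzyme of C4 photosynthesis, stood at 202 and 125 RPKM in the GFP libraries of preps 2 and 4. It was the highest of 9 rows on the mesophyll list there. The C4 carboxylase gene pep1 stood at 0.35 and 0.34 RPKM in those libraries, and lhcb6, lhcb4 and cab-m9 at 1.13 RPKM or below. Not all leaf markers were thus high in these dark-grown cells. The gene dhn2 is on both the embryo maturation list and the dehydration and abscisic acid list. It stood at 752 and 717 RPKM in the same libraries. A high level of a single listed gene, pdk1 or dhn2, does not settle identity.

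No row carried the name EREB69. The row with the largest rise in EREB69 cells, GRMZM2G085964, was chosen by its values and is taken as the candidate for the expressed gene. It stood at 787 RPKM in prep 2 and 755 RPKM in prep 4. The GFP libraries of those preps held 0.71 and 0.43 RPKM, and the other 48 libraries ran from 0 to 0.87 RPKM with a median of 0.34. Both EREB69 libraries thus held this transcript at nearly the same level, 1.04 times higher in prep 2. The row is not in the set, because its mean of 0.35 RPKM outside EREB69 was over the limit.

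GRMZM2G159728 was the most abundant of the 36 genes. It stood at 64.0 RPKM in prep 2 and 20.6 RPKM in prep 4, from 2575 and 891 reads. All 4 GFP libraries were listed at 0. Of the other 44 libraries, 4 held any read, 7 reads in all, with the highest value of 0.21 RPKM in ABI5 prep 2. Its mean of 42.3 ± 30.7 RPKM (SD, n = 2) was 3723 times the mean over the 48. That ratio rests on 7 reads. It was 5890 without ABI5 prep 2, which held 3 of them, 1811 without EREB69 prep 2 and 5634 without EREB69 prep 4. The reference tables used here pair no name with this row, and its function is not given.

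The delta zein gene dzs18 (GRMZM2G100018) came next. It stood at 14.2 RPKM in prep 2 and 4.56 RPKM in prep 4, a mean of 9.40 ± 6.84 RPKM (SD, n = 2). It too was listed at 0 in all 4 GFP libraries. Reads appeared in 9 of the other libraries, 17 in all, of which 7 were in WRKY81 prep 2 at 0.85 RPKM. WRKY81 prep 2 was thus the highest library outside EREB69, at a level below both EREB69 libraries. The mean in EREB69 was 218 times that over the 48. The ratio was 361 without WRKY81 prep 2, 106 without EREB69 prep 2 and 329.6 without EREB69 prep 4.

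The list of endosperm storage genes was matched by alias. It held 3 further rows, the starch genes bt2 and sh2 and GRMZM2G146267, with the alias of the zein regulator gene pbf1. Their summed level was 26.3 and 23.3 RPKM in the EREB69 libraries, 25.4 and 24.8 RPKM in the GFP libraries of the same preps, and 19.5 to 26.8 RPKM over the 48. The sum is mostly the pbf1 row, at 25.0 and 22.5 RPKM in EREB69 and 24.7 and 24.5 RPKM in GFP. Over the 48 libraries that row ran from 19.0 to 26.6 RPKM, and whether it is the zein regulator gene was not checked. Of the low genes, bt2 stood at 0.57 and 0.47 RPKM against 0.49 and 0.19, and sh2 at 0.74 and 0.30 RPKM against 0.22 and 0.13. The highest value over the 48 was 1.05 RPKM for bt2 and 0.64 RPKM for sh2, so sh2 in EREB69 prep 2 lay above it. The list held no storage protein gene besides dzs18. None of the 3 was at 0 in EREB69, and pbf1, the 1 that passed the filter on low values, had a log2 change of −0.05 and was not called.

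A further 3 genes averaged above 5 RPKM. GRMZM5G862709 stood at 8.49 and 6.33 RPKM in preps 2 and 4, GRMZM2G023122 at 7.03 and 4.52 RPKM, and GRMZM2G507382 at 7.89 and 3.43 RPKM. GFP prep 3 held 0.14 RPKM of GRMZM2G507382, and the other GFP values of these 3 genes were 0. All of these EREB69 values lay above the other 48 libraries, a separation that the rule nearly fixes for these genes and from which nothing is read.

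Another 11 genes averaged between 3 and 5 RPKM. They are GRMZM2G099976, GRMZM2G129249, GRMZM2G110286, AC205324.3_FG003, GRMZM2G050497, GRMZM2G036291, GRMZM5G880926, GRMZM2G065132, GRMZM2G088622, GRMZM2G032198 and GRMZM2G012809. GRMZM2G099976 led them with 6.91 RPKM in prep 2 and 2.83 RPKM in prep 4, was listed at 0 in all 4 GFP libraries, and had 13 reads in 9 other libraries. AC205324.3_FG003 was more even, at 4.00 and 3.02 RPKM. It held 51 reads in 23 of the other libraries, the highest being 0.38 RPKM in NAC25 prep 4, 0.34 RPKM in MYB131 prep 4 and 0.30 RPKM in NAC25 prep 2.

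Within this level the preps differed more for some genes than for others. GRMZM2G129249 stood at 5.71 RPKM in prep 2 and 1.44 RPKM in prep 4, and GRMZM2G036291 at 5.50 and 1.41 RPKM. GRMZM2G110286 stood at 4.66 and 2.48 RPKM, GRMZM2G050497 at 4.06 and 2.87 RPKM, and GRMZM5G880926 at 4.04 and 2.57 RPKM. All of these were listed at 0 in the 4 GFP libraries. Outside EREB69 the highest was GRMZM2G036291 at 0.37 RPKM in NAC29 prep 1, from 3 reads.

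The remaining 20 genes averaged below 3 RPKM, down to 1.13 ± 0.15 RPKM for GRMZM2G100166. The row GRMZM2G114503, with the alias RADIALIS, is named after a snapdragon MYB-like gene that shapes the upper petals. It stood at 2.18 RPKM in prep 2 and 2.20 RPKM in prep 4. GFP held 0.15 and 0.44 RPKM in preps 2 and 4, and 0 in preps 1 and 3. The GFP prep 4 value, from 3 reads, was its highest outside EREB69. The others of this level were AF546188.1_FG005, AF546188.1_FG006, AF546188.1_FG007, GRMZM2G025205, GRMZM2G113167, GRMZM2G114288, GRMZM5G809269, GRMZM2G407119, GRMZM5G852089, GRMZM2G464985, GRMZM2G582848, GRMZM2G009854, GRMZM2G099545, GRMZM2G176124, GRMZM2G159973, GRMZM2G415371, GRMZM2G118378 and AC191377.3_FG002.

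**Figure D1:**
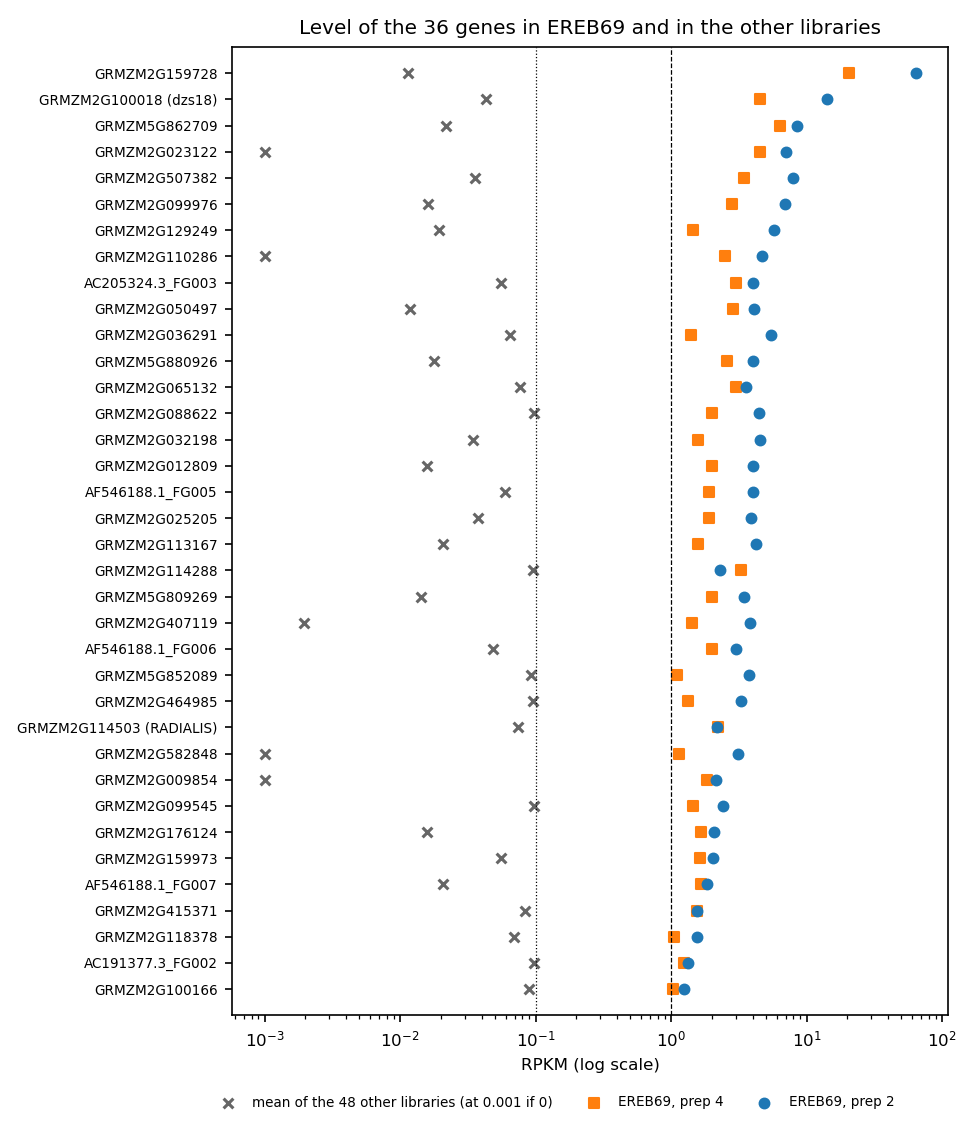
RPKM of the 36 genes on a log scale, with circles for EREB69 prep 2, squares for EREB69 prep 4 and crosses for the mean of the other 48 libraries, drawn at 0.001 where it is 0. The dashed line is the floor of 1 RPKM and the dotted line the limit of 0.1 RPKM, which the rule set, and GRMZM2G159728 stands highest at 64.0 and 20.6 RPKM.

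Values near the limits show how sharp the rule is. Just above the floor were GRMZM2G100166, GRMZM2G118378 and GRMZM5G852089, with 1.03, 1.04 and 1.11 RPKM in their lower EREB69 library. Just below it were GRMZM2G465812 (alias TPS9), GRMZM2G011256 and GRMZM2G454511, with 0.99, 0.82 and 0.82 RPKM. Just under the limit outside EREB69 were GRMZM2G088622, GRMZM2G099545 and AC191377.3_FG002, each with a mean of 0.097 RPKM. Just over it were GRMZM2G175297, GRMZM2G172391 and GRMZM2G015586, with means of 0.109, 0.110 and 0.111 RPKM.

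The EREB69 libraries were the deepest. At its lower EREB69 level, each of the 36 genes would have given 6.80 to 189 reads in the shallowest of the other libraries, with a median of 10.5. At their mean EREB69 levels the set would have given 75423 reads over the 48 libraries, and 842 were found, a shortfall that the rule fixes and that says nothing of depth. Reads carry no molecular identifiers and are not independent molecules, so these figures cover counting only.

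How silent the genes were outside EREB69 differed within the set, which the limit on the mean did not fix gene by gene. For 4 genes no read was found in any of the 48 libraries: GRMZM2G023122, GRMZM2G110286, GRMZM2G582848 and GRMZM2G009854. Against a floor of 3 reads over those libraries, their EREB69 means were at least 581-fold, 277-fold, 375-fold and 223-fold higher. A further 3 genes had 2 or 3 reads. GRMZM2G407119 had 2 reads, both in ZFL1 prep 2, a ratio of 1352 (95% counting interval 374 to 11165). The ratio was 291 (80.7 to 2407) for GRMZM2G050497 and 192 (65.7 to 931) for GRMZM5G809269.

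The other 29 genes held 4 to 113 reads outside EREB69, and their EREB69 means were 12.7 to 3723 times the mean over the 48. Leaving out the highest of the 48 libraries moved this ratio by over 1.5 times for 4 of the 29 genes, leaving out EREB69 prep 2 for 14 and leaving out EREB69 prep 4 for 5. Reads of 5 of them were found in at least 24 libraries. GRMZM2G464985 was above 0 in 38 libraries, GRMZM2G100166 in 35, GRMZM2G088622 in 33, and GRMZM2G099545 and AC191377.3_FG002 in 31 each. In EREB69 preps 2 and 4, GRMZM2G464985 stood at 3.26 and 1.33 RPKM, GRMZM2G088622 at 4.47 and 2.01 RPKM, GRMZM2G099545 at 2.43 and 1.45 RPKM, AC191377.3_FG002 at 1.34 and 1.24 RPKM, and GRMZM2G100166 at 1.24 and 1.03 RPKM. The highest value of these 5 elsewhere was 0.54 RPKM, for GRMZM2G088622 in WRKY81 prep 2, below every EREB69 value of the 5. In the 4 GFP libraries, 19 of the 36 genes were listed at 0 throughout.

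**Figure D2:**
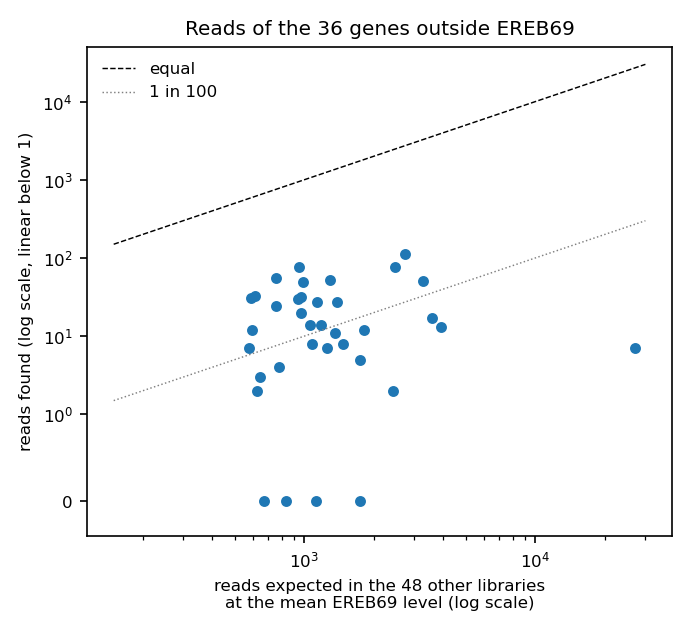
Reads found over the other 48 libraries against those expected at the mean EREB69 level, both on log scales (linear below 1 on the vertical axis), 1 point per gene. The dashed line marks equal numbers and the dotted line 1 read in 100, and 4 genes lie at 0.

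Only 1 value of the set outside EREB69 reached 1 RPKM. GRMZM5G852089 stood at 1.51 RPKM in MYB131 prep 2, from 20 reads, and at 0.20 RPKM in MYB131 prep 4. In EREB69 it stood at 3.74 and 1.11 RPKM, so the MYB131 prep 2 library lay above EREB69 prep 4. In GFP it was at 0.098 RPKM in prep 2 and 0 in prep 4. Its log2 change in MYB131 against GFP was 1.12 ± 0.34 (SE) on the log2(RPKM + 0.5) scale and was not called in limma (adjusted p = 0.0671). That SE is pooled over all groups and is not the spread of the 2 MYB131 libraries.

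The regulators other than EREB69 were each compared with GFP of their own preps in the same limma fit. Calls needed an adjusted p (Benjamini-Hochberg) under 0.05 with a log2 change of 1 or more in either direction. In 792 tests of the 36 genes over 22 regulators, 0 were called, and 20 had an unadjusted p below 0.05. Over all rows and these regulators, 0.151% of tests were called higher and 0.0116% lower. The limit of 0.1 RPKM holds these values down, and such levels are a few reads, so the absence of calls is partly set by the rule. Changes ran from −0.65 to the 1.12 given above.

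Summed over the set, EREB69 held 206 RPKM in prep 2 and 97.7 RPKM in prep 4. The other 48 libraries ran from 0.35 to 4.85 RPKM, with a median of 1.19. The next groups were WRKY81, with 4.85 and 2.74 RPKM in preps 2 and 4, NAC25 with 3.02 and 2.99 RPKM, and MYB131 with 3.57 and 2.27 RPKM. The GFP libraries of the same preps held 0.81 and 0.87 RPKM. All 11 other regulators of preps 2 and 4 lay above the GFP library in both preps. The lowest were ZHD4 in prep 2, at 0.84 RPKM, and bHLH97 in prep 4, at 1.00 RPKM. All 11 share the same GFP libraries, which held 7 reads of the set each, against 11 in ZHD4 prep 2 and 12 in bHLH97 prep 4. The lowest sum was 0.35 RPKM in GFP prep 1, and GFP prep 3 held 1.18 RPKM. Regulators of prep 3 lay on both sides of that GFP library, from 0.69 RPKM in ZIM13 to 2.03 RPKM in NAC29. In CPM, the set held 0.79 to 5.32 in the 24 other libraries of preps 2 and 4 and 0.67 to 3.81 in the 24 of preps 1 and 3, with medians of 1.73 and 1.27.

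**Figure D3:**
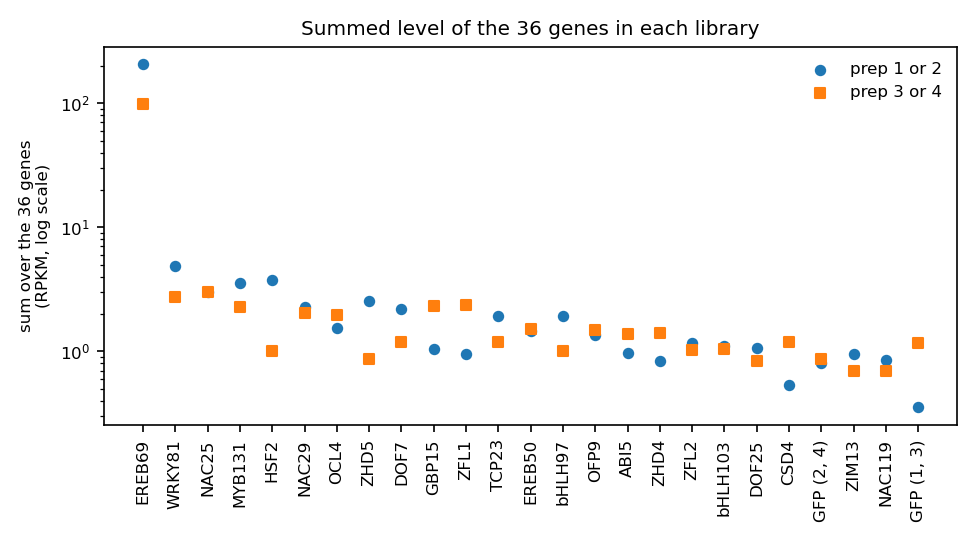
Summed RPKM of the 36 genes in each of the 50 libraries on a log scale, by group in order of the group mean. Circles are preps 1 or 2 and squares preps 3 or 4; EREB69 stands at 206 and 97.7 RPKM and all other libraries at or below 4.85 RPKM.

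The EREB69 libraries differed in how strongly the set was expressed. Levels were higher in prep 2 for 33 of the 36 genes, by a median ratio of 1.70. For 16 genes the ratio was above 2, and it reached 3.96 for GRMZM2G129249, 3.91 for GRMZM2G036291 and 3.36 for GRMZM5G852089. The most abundant pair, GRMZM2G159728 and dzs18, had ratios of 3.11 and 3.12. The 3 genes that were not higher in prep 2 were GRMZM2G114288, at a ratio of 0.70, RADIALIS at 0.99 and GRMZM2G415371 at 0.996.

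The difference went beyond counting error for 23 genes, all higher in prep 2, by the exact 95% binomial interval of each gene's reads. For 13 genes, GRMZM2G114288 among them, it did not. The same count was not made over all rows tested, so it is not read as particular to the set. The median log2 difference, prep 2 minus prep 4, was 0.62 in the set and 0.02 over all rows tested, of which the central 90% ran from −0.62 to 0.79. The 306 other rows called higher in EREB69 had a median of 0.57, and 282 of them were higher in prep 2. Some leaf cell markers also differed between preps, and others did not share the direction. Of 4 bundle sheath genes, 3 were higher in prep 2 in EREB69 and 4 in GFP. Their sum was 58.0 RPKM in EREB69 prep 2 and 24.9 RPKM in prep 4, and 63.1 and 26.5 RPKM in GFP, and it is mostly the rbcS row GRMZM2G113033, at 35.0 and 9.69 RPKM in EREB69. The bundle sheath gene me3 went the other way in EREB69, at 8.47 and 10.4 RPKM. The mesophyll list was matched by alias without regard to case. It took in GRMZM2G107196, at 48.7 and 28.0 RPKM in EREB69, and GRMZM2G097821, at 11.7 and 13.4 RPKM, both with the alias PDK1. Whether these rows mark mesophyll was not checked. Of the 9 rows on the list, 4 were higher in prep 2 in EREB69 and 7 in GFP. Their sum was 411 and 284 RPKM in EREB69 and 305 and 192 RPKM in GFP, carried by pdk1 with 287 and 206 RPKM in EREB69, and none was at 0 there. The part of the cell makeup in the difference between preps was not tested. There is 1 library per prep and no test of it.

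**Figure D4:**
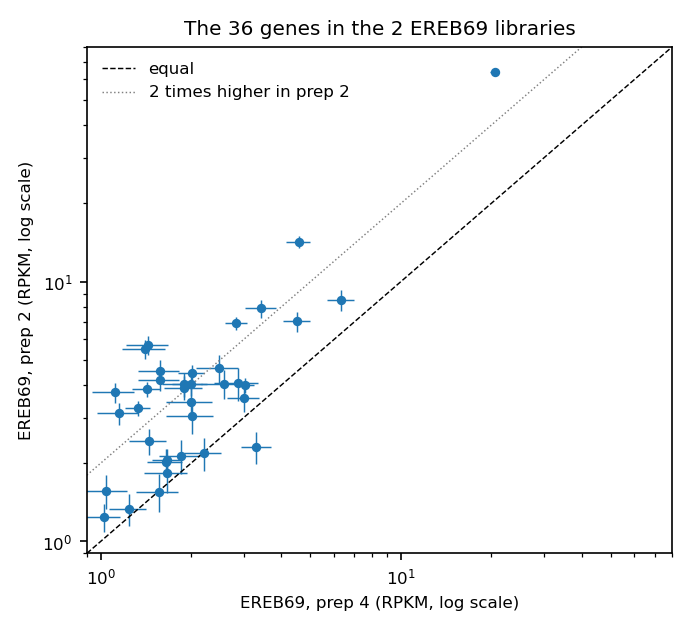
Level of each of the 36 genes in EREB69 prep 2 against EREB69 prep 4, RPKM on log scales, with bars of 1 counting SE. The dashed line marks equal levels and the dotted line a level 2 times higher in prep 2, and 33 points lie above the dashed line.

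Against GFP of preps 2 and 4, limma called 342 of 28122 rows higher in EREB69, 1.22% of those tested. All 36 genes passed the filter on low values, as the rule ensures, and all 36 were among the calls. The rule used this contrast, and nothing is read from that count. Their log2 changes ran from 1.70 to 6.20 with a median of 2.67 on the log2(RPKM + 0.5) scale, against −0.01 over all rows tested. They make up 10.5% of the rows called higher. Of the other 306, 25 averaged below 0.1 RPKM in those GFP libraries, 156 between 0.1 and 1 RPKM and 125 at least 1 RPKM. Without EREB69 replicate 2 the total of called rows fell from 342 to 140. That fit leaves EREB69 with 1 library, assumed to vary like those of the other groups.

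The same rule was applied to the 2 libraries of every other group as labelled. It found 70 rows for MYB131, 3 for OCL4, 2 for DOF25, and 1 each for HSF2, NAC119, NAC29 and OFP9, and none for the 17 others, GFP included. Of the 36 genes, 17 were listed at 0 in both MYB131 libraries and 10 were above 0 in both. In turn, the 70 MYB131 rows reached at most 0.29 RPKM in an EREB69 library. These counts describe the table after its filter, and the rule itself keeps the sets apart.

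Whether a reference lists a gene was not used by the rule. In the set, 4 of the 36 IDs, or 11.1%, were found in the RefSeq gene table of assembly Zm-B73-REFERENCE-NAM-5.0, against 48.3% of all rows. The 4 are dzs18, RADIALIS, and LOC100278315 (GRMZM2G032198) and LOC100501547 (GRMZM2G464985), which have no other name there. The share was 48.4% among the 126 other rows averaging below 0.1 RPKM over the 48 libraries, 55.7% among the 70 MYB131 rows and 33.3% among the 306 other rows called higher in EREB69. These shares are descriptions and were not tested. Nearly all of the set is thus known here by ID and value only.

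Row lengths, recovered from the steps of the RPKM values, ran from 397 to 2616 bases with a median of 842. The median was 1616 bases over all rows, 1283 over the 306 other rows called higher in EREB69 and 1321 over the MYB131 rows. It was 2420 bases over the 126 other rows averaging below 0.1 RPKM over the 48 libraries, so those rows differ from the set in length too. The floor is per length and the filter of the table per library, so length is not independent of the rule.

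Several members had equal row lengths and reads in the same libraries. GRMZM5G862709, GRMZM5G880926 and GRMZM5G809269 are each 520 bases long. Outside EREB69 they held 5, 4 and 3 reads, and the 3 libraries with a read of GRMZM5G809269 (OCL4 prep 1, TCP23 prep 1 and ZFL1 prep 4) held 1 read of each. In EREB69 they differed, with 126, 60 and 51 reads in prep 2 and 101, 41 and 32 in prep 4. How reads matching several genes were counted is not given in the sources used here, so these 3 values may not be separate.

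The pair GRMZM2G065132 and GRMZM2G114288, both 759 bases, held reads in 20 and 21 other libraries, 12 of them shared, with equal read numbers in 10. HSF2 prep 1 was highest for both, at 0.61 RPKM from 5 reads. In EREB69 the pair went opposite ways between preps, 3.56 and 3.00 RPKM for the first and 2.31 and 3.30 RPKM for the second. GRMZM2G099545 and GRMZM2G159973, both 1127 bases, shared 13 libraries with equal reads in 5. Equal length shows no shared sequence by itself, and no sequence of these rows was at hand.

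The IDs of 3 members name consecutive gene models of 1 sequenced clone, and they are all the rows of that clone in the table. AF546188.1_FG005 stood at 4.02 and 1.89 RPKM in preps 2 and 4, AF546188.1_FG006 at 3.04 and 2.01 RPKM, and AF546188.1_FG007 at 1.84 and 1.67 RPKM. That all 3 were on in both EREB69 libraries is what the rule required, and nothing is read from it. The first and the last are both 723 bases long. The 7 libraries outside EREB69 with a read of AF546188.1_FG007 all held reads of AF546188.1_FG005, with equal numbers in 4, so reads may be shared here too.

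Lists of genes with known roles were matched by alias, and their patterns were trimmed after the matches and their values had been seen, so they are given as counts only. Of 78 tested rows in 11 lists, dzs18 left out, limma called 0 in EREB69 against GFP, beside 1.22% of all rows called higher. Without adjustment 4 had a p below 0.05, and limma-voom on recovered reads called 0. Among 22 tested AP2/ERF genes the log2 changes ran from −0.79 to 0.68 with a median of −0.12. The lowest adjusted p of any list, 0.0717 in limma, was that of EREB98, picked out after its values were seen, which stood at 19.6 and 20.3 RPKM in EREB69 and 31.8 and 29.4 RPKM in GFP. Median log2 changes were 0.06 for 6 ethylene genes and −0.02 for 22 dehydration and abscisic acid genes.

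Marker lists of other tissues were small, and limma called 0 in each. The rows tested were 4 of 4 for embryo maturation, 3 of 3 for anther, 3 of 3 for root, 2 of 4 for pollen and 6 of 7 for epidermis. Embryo maturation genes summed to 869 and 788 RPKM in EREB69 preps 2 and 4 against 876 and 860 RPKM in GFP. That sum is mostly dhn2, at 756 and 663 RPKM in EREB69, and dhn1, at 103 and 110 RPKM. Both are also on the dehydration and abscisic acid list. The other rows were lower in EREB69, GLB1 at 1.91 and 2.03 RPKM and mlg3 at 8.64 and 12.7 RPKM. Anther genes summed to 24.7 and 27.9 RPKM against 23.8 and 24.8 RPKM, and pollen genes to 5.79 and 4.75 RPKM against 5.29 and 5.57 RPKM. Root genes summed to 53.3 and 44.4 RPKM against 58.3 and 45.8 RPKM. Epidermis genes summed to 48.8 and 50.2 RPKM against 48.2 and 49.7 RPKM. The largest part of the epidermis sum is GRMZM5G824600, with the alias fdh1, at 27.7 and 26.3 RPKM in EREB69. Another row with that alias, GRMZM2G078118, stood at 0.94 and 1.04 RPKM there, and which of them marks epidermis was not checked. Each of these EREB69 sums lay within the range of the other 48 libraries, and no row of these lists was at 0 in both EREB69 libraries.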

How the data were processed

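RPKM were deposited by the authors in 1 table, 1 column per library. The submitters' processing notes name HISAT2 2.1.0, featureCounts, Subread 1.6.3, edgeR 3.20.9 and the build B73 RefGen_v3. The library kit keeps strand, per the labels, but the strand setting of the counting and the handling of multiply matching reads are not given in the sources used here. Whole reads and row lengths were recovered from the steps of the RPKM for 30213 of 30213 rows, and 100.0% of values were whole within 0.05 reads. The authors' filter on low rows is not stated. limma 3.58.1 in R 4.3.3 was run on log2(RPKM + 0.5), with 25 groups, 25 residual degrees of freedom and a variance trend, keeping 28122 rows that reached 1 RPKM in 2 or more libraries. Scripts were tested on simulated data.

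The members and lists were chosen with earlier results of these data known. The alias patterns of the gene lists were also trimmed after their matches and values in these files had been seen, so no support is drawn from them. Every member is named, and described in full were those with an alias other than a LOC number, the 12 highest in EREB69 and those above 0 in the most other libraries. Replicate numbers are protoplast preps, per the labels, and pair EREB69 with GFP: across tested rows, prep 2 minus prep 4 correlated at 0.19 between them. P-values rest on 1 spread per row, pooled over the 25 groups of 2 libraries, with a variance trend across rows. They do not measure the spread of the compared groups alone, and each library came from 1 prep. Names came from RefSeq on another build, which matched 14595 row IDs, so no positions are given. Promoter motifs were not analysed here.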

Additional observations from a re-analysis of the deposited data

How the results depend on the processing

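The number of genes found depends on the limits: 16 with a floor of 2 RPKM, 21 with a ceiling of 0.05 RPKM and 65 with a ceiling of 0.2 RPKM. It was 93 with the highest other library below 1 RPKM in place of the mean, of which 35 are among the 36. It was 53 with a floor of 0.5 RPKM, 31 with the mean over preps 2 and 4 only, 36 to 48 with the floor in 1 EREB69 library, and 36 without WRKY81 replicate 2, an alternative chosen after seeing the data. The total called in EREB69 against GFP was 342, 140 to 343 with 1 EREB69 or GFP library left out (140 without EREB69 replicate 2), and 260 to 397 under the other alternatives. With prep as a replicate block it was 397, and 0 list rows were called. The rule used this contrast, so nothing is read from the number of the 36 called, 35 with a pseudocount of 0.1 and 36 in the other alternatives. Leaving out a library leaves a lone sample, assumed to vary like the other groups, and the cause of the fall to 140 was not tested. Each group had 2 libraries, and genes near 0 rest on a few reads. The ratios with libraries left out, given with the genes, were also chosen after seeing the data.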
